A study of Mus musculus with 18 samples.

Results

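Epithelial-mesenchymal transition (EMT) genes were followed in RNA-seq of mouse embryonic stem cells (mESCs) that were leaving the stem cell state with or without Nsd1, a histone methyltransferase. The group was fixed by symbol and holds 10 of the 20703 genes in the table: the epithelial genes Cdh1, Epcam and Esrp1, the transcription factors Snai1, Snai2, Zeb1 and Zeb2, and the mesenchymal genes Cdh2, Vim and Fn1. All 10 were present, with 1 entry each, and no gene was lost to a filter on low values. The cells were of the E14 line. WT cells were compared with 2 single-cell clones, KO-1 and KO-2, in which Cas9 had removed exon 5 of both Nsd1 alleles from E14 cells that carried a triple Flag tag on Nsd1; whether the sequenced WT cells carried the tag is not given in the sources used here. Cells were collected at day 0, in medium with LIF and with MEF feeders, and at day 2 and day 4 after LIF and the feeders had been taken away and the cells spread as a monolayer on gelatin. Each line had 2 biological replicates at each day, which gave 18 libraries, so that each day had 2 WT and 4 KO libraries. Clone and genotype are nested here, because WT was represented by 1 line and the KO by 2 clones. Loss of Nsd1 therefore cannot be told apart from other differences between the WT line and the clones. KO effect below means the difference of the KO clones from the WT line.

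EMT is the change by which cells of a sheet, held together by E-cadherin, lose their junctions and polarity and become motile cells rich in vimentin and fibronectin. Transcription factors of the Snail and Zeb families bind E-box motifs in epithelial genes, Cdh1 among them, and repress them. In the mouse embryo the process takes place at gastrulation, when epiblast cells pass through the primitive streak, and differentiating mESCs can pass through a similar step in culture.

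The libraries held between 9309874 and 23921193 counts on genes, with a median of 15721347. The WT libraries of day 2 were the shallowest of all, at 9309874 and 9356867 counts, against 14595828 to 19445827 in the 4 KO libraries of that day. Levels are given as normalized counts, which are the counts behind the deposited values divided by the size factor of the library. Fold changes are given on the scale of the deposited values, a variance stabilizing transformation (VST) on a log2 scale that compresses the changes of genes with few counts, and, where the difference matters, from limma-voom on the counts. A gene was called when its adjusted p was under 0.01 and its log2 fold change on the scale tested was over 0.58 in size. On the VST scale this asks for more than 1.49-fold in normalized counts, the more so the fewer counts a gene has, so that genes not called on that scale can still differ by more than 1.49-fold.

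Nsd1 itself was checked in every library. At day 0 the WT libraries held 3374 and 3659.9 normalized counts, with 837 and 711 in KO-1, and 689 and 635 in KO-2. At day 2 the values were 2773 and 3344 in WT, 854 and 927 in KO-1, and 964 and 1024 in KO-2. At day 4 they were 2425 and 2111 in WT, 1103 and 910.1 in KO-1, and 575 and 684 in KO-2. All KO libraries were below all WT libraries at each day, and the counts cover the whole gene and not the deleted exon alone. Markers of pluripotent cells summed to 87035 and 89433 normalized counts in the WT libraries of day 0 and to 83657 to 88703 in KO, with Tdgf1 the most abundant of the 8 markers in both. Between the genotypes at that day, 0 of the 8 were called by limma on VST or by limma-voom, beside 2.61% and 13.3% of all genes.

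Of the 10 EMT genes, 3 were called between KO and WT at day 0 on the VST scale, all of them higher in KO, where 2.61% of all genes were called, 1.73% higher and 0.879% lower. At day 2, 6 were called, 4 higher and 2 lower in KO, beside 6.38% of all genes, 4.01% higher and 2.37% lower. At day 4, 7 were called, 2 higher and 5 lower in KO, beside 7.58% of all genes, 3.67% higher and 3.91% lower. The same comparisons by limma-voom called 5, 9 and 9 of the 10, beside 13.3%, 23.9% and 23.9% of all genes, with 3 higher and 2 lower (Snai1 and Epcam) at day 0, 7 and 2 at day 2, and 2 and 7 at day 4. On the VST scale the 10 genes had a median log2 fold change of 0.21, 0.46 and -0.60 at the 3 days in turn, where the median over all genes was -0.00319, -0.0159 and 0. By limma-voom these medians were 0.38, 1.37 and -0.70, beside -0.033, -0.142 and 0.00229 over all genes. The mesenchymal genes Fn1, Vim and Cdh2 were thus called higher in KO at day 2 and lower in KO at day 4, Zeb1 was called higher in KO at all 3 days, and Cdh1 was called lower in KO at day 2 and day 4. In these bulk samples, fewer cells of a type and less RNA per cell cannot be told apart.

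**Figure D1:**
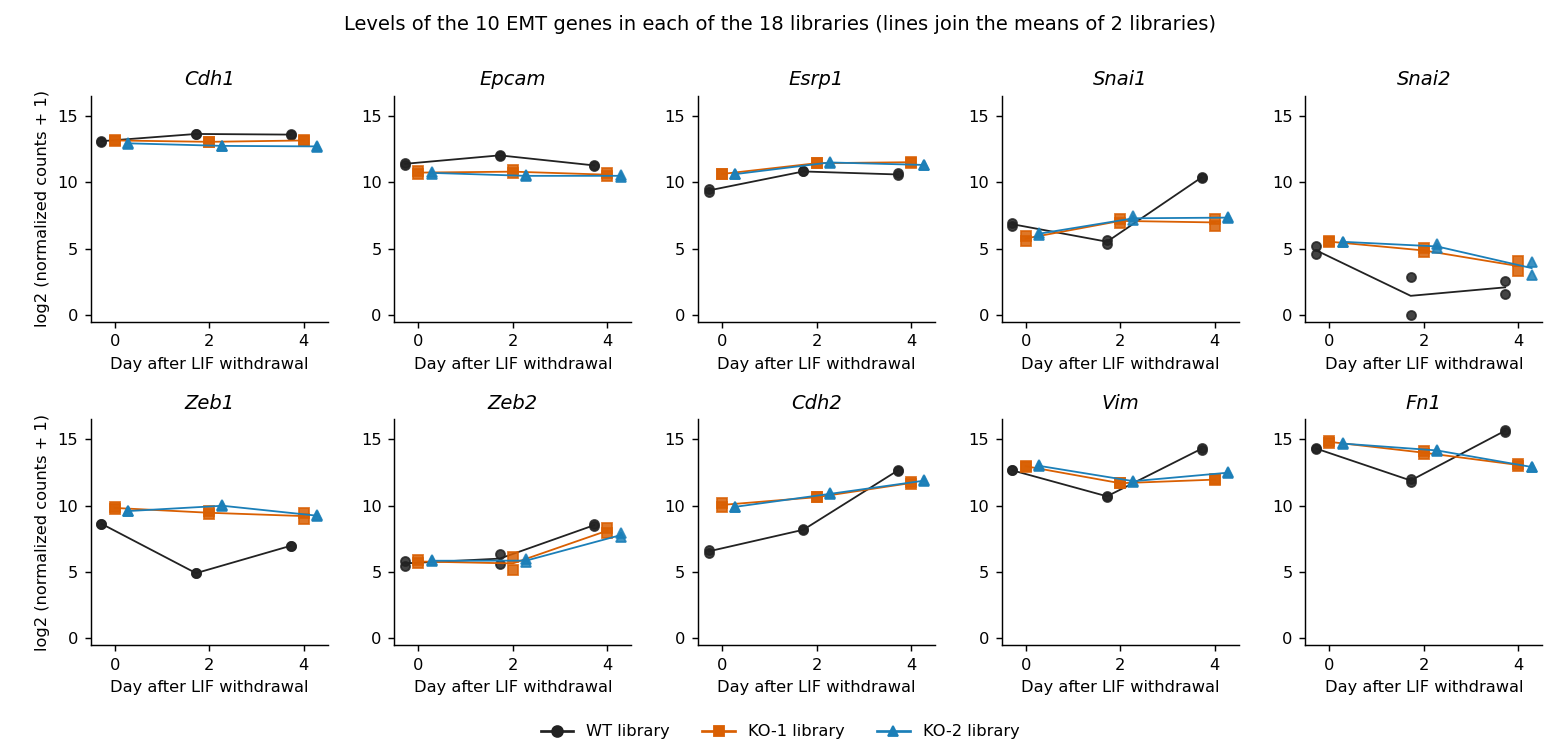
Levels of the 10 genes as log2 of the normalized counts plus 1 (y axis) by day after LIF withdrawal (x axis) in the 6 WT, 6 KO-1 and 6 KO-2 libraries; points are libraries, shifted sideways by line, and lines join the means of 2 libraries. The WT lines of Fn1, Vim and Snai1 go down at day 2 and up at day 4, while those of both clones stay within a narrower range.

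Cdh1 encodes E-cadherin, the adhesion molecule of epithelial sheets and of undifferentiated mESCs. In WT it had 8629 and 8990.2 normalized counts at day 0, 12875 and 12821 at day 2, and 12757 and 12090.1 at day 4. In KO-1 it had 9321 and 8993 at day 0, 8589 and 8436 at day 2, and 9047 and 9254 at day 4. In KO-2 it had 7984 and 7772 at day 0, 6902 and 6879.8 at day 2, and 6781 and 6635 at day 4. The genotypes overlapped at day 0, with KO-1 just above the WT values and KO-2 below them, and afterwards every KO library was below every WT library. Cdh1 was called lower in KO by limma on VST at day 2 (-0.70, SE 0.12, adjusted p = 6.57e-05), or 1.67-fold in normalized counts, and at day 4 (-0.62, SE 0.12, adjusted p = 2.35e-04), or 1.57-fold. The call at day 4 was lost when the day was fitted alone (adjusted p = 0.0223), with KO-1 as the only KO line (-0.42), and without either KO-2 library of day 4 (-0.56 and -0.55). The call at day 2 was lost with KO-1 as the only KO line (-0.56) and after quantile normalization (-0.54). Between the clones, KO-1 was above KO-2 by 0.41 at day 4 (SE 0.05, adjusted p = 1.16e-04), which is under the fold threshold. Within a genotype, Cdh1 was not called between any days, with log2 changes of 0.51 in WT and -0.14 in KO from day 0 to day 2.

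Epcam encodes a surface glycoprotein of epithelial cells that is also high in mESCs. WT libraries had 2804 and 2604 normalized counts at day 0, 4263 and 4144 at day 2, and 2448 and 2519 at day 4. KO-1 had 1569 and 1856, then 1921 and 1675, then 1435 and 1633 at the 3 days. KO-2 had 1748 and 1618, then 1409.8 and 1470.0, then 1500.0 and 1387. All KO libraries were below all WT libraries at each day, and the clones overlapped at day 0 and day 4. Epcam was 2.60-fold lower in KO at day 2 (log2 fold change -1.13, SE 0.08, adjusted p = 6.61e-10). At day 0 and day 4 it stood at -0.53 and -0.57 with adjusted p = 3.31e-05 and 5.90e-06, just inside the fold threshold and so not called, while limma-voom called both (-0.67 and -0.74). In WT, Epcam had a log2 change of 0.54 from day 0 to day 2, which was not called, and it fell by 0.64 from day 2 to day 4 (adjusted p = 9.22e-06). KO libraries showed changes of -0.06 and -0.08 over the same steps, neither called.

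The Epcam promoter is shown because the Snail and Zeb proteins bind the E-box CAGGTG, and its reverse complement CACCTG, in epithelial genes. Of the 10 genes, 4 had promoter windows in the RefSeq table used here (GRCm38.p6, while the authors aligned to mm39), each window running from 250 bases before to 50 after a start site. In Epcam, 2 sites were found, and in Snai1, whose protein is known to act on its own promoter, 1 site was found. The capitals mark the motif, and each run is given on the plus strand, 5′ to 3′.
Epcam, chr17:87635780-87635809, motif starting 187 bases before the start site: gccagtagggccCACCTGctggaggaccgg
Epcam, chr17:87635948-87635977, motif starting 19 bases before the start site: acccataaaaccCAGGTGtggaggagaagc
Snai1, chr2:167538057-167538086, motif starting 126 bases before the start site: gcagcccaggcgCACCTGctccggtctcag
The single window of Vim and the 4 windows of Zeb2 held neither set of letters. Of all 32851 windows of that length, 20.2% held the motif on either strand and 2.88% held 2 or more sites, so that its presence alone singles out no gene.

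Esrp1 encodes an RNA-binding protein that directs epithelial splicing. WT libraries had 729.6 and 619 normalized counts at day 0, 1814 and 1812 at day 2, and 1629 and 1471 at day 4. KO-1 libraries had 1612 and 1564, then 2785 and 2791, then 3005 and 2873. KO-2 libraries had 1607 and 1549, then 2881 and 2921, then 2549 and 2538. Unlike Cdh1 and Epcam, Esrp1 was higher in every KO library than in every WT library at each day, by 2.35-fold, 1.57-fold and 1.77-fold. The VST difference was called at day 0 (0.82, SE 0.06, adjusted p = 7.21e-09) and at day 4 (0.64, SE 0.06, adjusted p = 4.87e-08). At day 2 it was 0.52 (adjusted p = 1.35e-06), not called, and by limma-voom it was 0.65, called. With KO-2 as the only KO line the value of day 4 was 0.56 and the call was lost. Esrp1 rose from day 0 to day 2 in both genotypes, by 0.96 in WT (adjusted p = 2.00e-09) and 0.66 in KO (adjusted p = 2.64e-09).

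**Figure D2:**
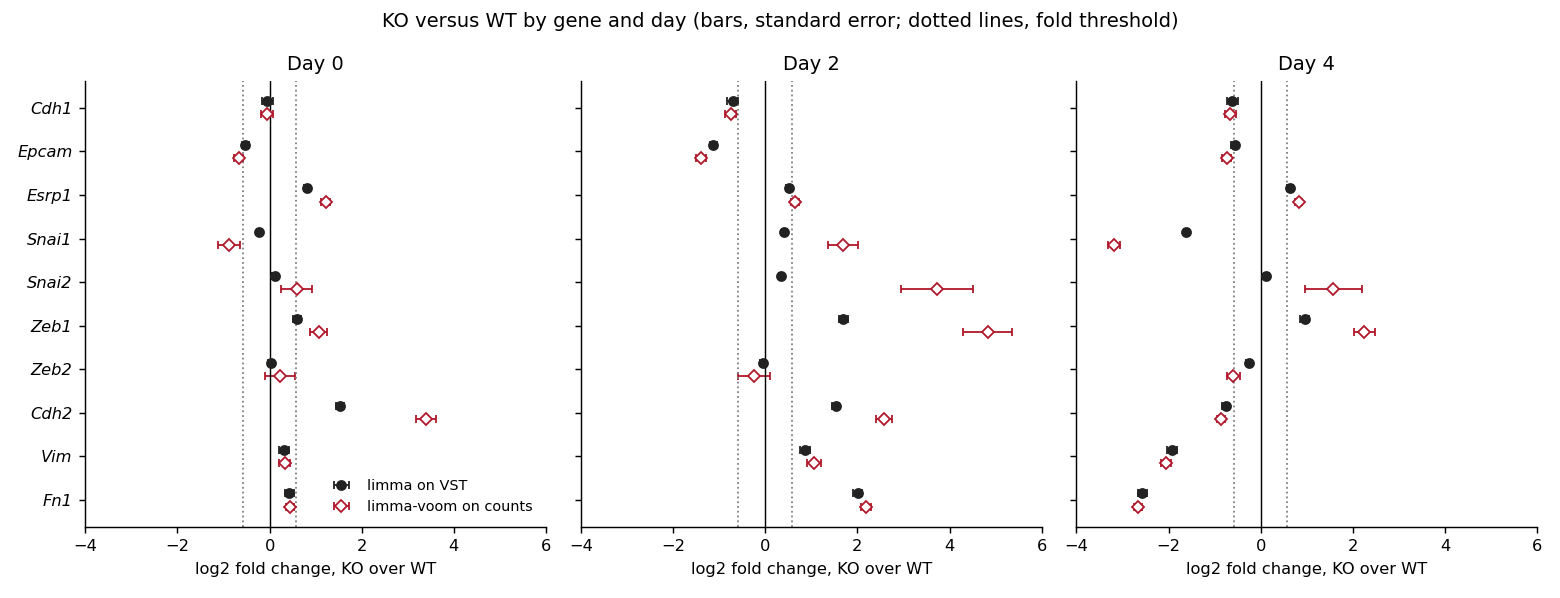
Log2 fold change of KO over WT (x axis) for the 10 genes (y axis) at day 0, 2 and 4, by limma on VST values (filled circles) and limma-voom on counts (open diamonds), with standard errors as bars and the fold threshold of 0.58 as dotted lines. Fn1 lies at 0.43, 2.01 and -2.57 on the VST scale over the 3 days, and the 2 scales are furthest apart for Snai2 and Zeb1 at day 2, by 3.39 and 3.13.

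Zeb1, a zinc finger and homeodomain repressor of epithelial genes, had the largest ratio between the genotypes of the 10 genes. WT libraries had 400.0 and 394 normalized counts at day 0, 29.3 and 29.2 at day 2, and 125 in each library at day 4. KO-1 had 979.6 and 846 at day 0, 653 and 765 at day 2, and 692 and 511 at day 4. KO-2 had 779 and 767 at day 0, 995 and 1046 at day 2, and 591 and 624 at day 4. Every KO library was above every WT library at each day. In KO the levels of day 2 overlapped those of day 0, whereas in WT they were 13.6-fold lower at day 2 than at day 0. Each WT library of day 2 had 18 counts. KO exceeded WT by 2.12-fold at day 0, 29.6-fold at day 2 and 4.84-fold at day 4. On the VST scale these differences were 0.60 (SE 0.09, adjusted p = 4.74e-05), 1.70 (SE 0.09, adjusted p = 1.52e-11) and 0.95 (SE 0.09, adjusted p = 3.71e-08), and limma-voom gave 1.06, 4.82 and 2.25. The call of day 0 was lost without replicate 1 of KO-1 (0.55), with KO-2 as the only KO line (0.52) and after quantile normalization (0.56). Zeb1 fell in WT by 1.09 from day 0 to day 2 (adjusted p = 7.96e-08), and the change in KO, 0.02, was not called. The clones went opposite ways over this step, with -0.22 for KO-1 as the only KO line (adjusted p = 0.0417) and 0.25 for KO-2 (adjusted p = 2.18e-04), neither past the fold threshold, and at day 2 KO-1 was below KO-2 by 0.33 (adjusted p = 0.0199, not called). The KO effect was larger at day 2 than at day 0 by 1.10 (SE 0.13, adjusted p = 5.32e-06).

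Zeb2, the other member of the Zeb family, did not follow Zeb1. In WT its libraries held 43.6 and 56.1 normalized counts at day 0, 83.1 and 48.6 at day 2, and 384 and 355 at day 4. KO-1 had 51.4 and 58.1, then 70.2 and 34.6, then 315 and 245. KO-2 had 58.6 and 55.2, then 60.9 and 53.7, then 199 and 243. The genotypes overlapped until day 2. By day 4 both clones lay under both WT libraries, by 1.48-fold between the means. The difference at day 4 was -0.25 on the VST scale (adjusted p = 4.03e-03), not called, and -0.60 by limma-voom (SE 0.14, adjusted p = 2.03e-03), called. Zeb2 rose from day 2 to day 4 in WT, by 0.83 (adjusted p = 1.42e-08), and in KO, by 0.64 (adjusted p = 1.66e-08), where KO-2 as the only KO line gave 0.55, not called.

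Snai1 encodes Snail, a repressor of Cdh1 that is switched on in the primitive streak. Its WT libraries held 106 and 124 normalized counts at day 0, 40.7 and 50.2 at day 2, and 1348 and 1301 at day 4. KO-1 had 61.0 and 47.5, then 152 and 122, then 106 and 149. KO-2 had 65.7 and 72.9, then 174 and 140.1, then 163 and 161. KO libraries were below WT at day 0, above WT at day 2 and below WT at day 4, with no overlap at any day. Snai1 was 9.16-fold lower in KO at day 4, which was -1.61 in log2 on the VST scale (SE 0.06, adjusted p = 5.16e-15) and -3.18 by limma-voom. At day 0 and day 2 the VST differences were -0.22 and 0.41, not called, and limma-voom gave -0.89 and 1.68, both called. From day 2 to day 4, Snai1 rose in WT by 2.02 (SE 0.07, adjusted p = 1.70e-15), which was 29.1-fold in normalized counts, and in KO the change was -0.01 (adjusted p = 0.927). Over the step from day 0 to day 2, the VST changes were -0.31 in WT and 0.33 in KO, neither called. Limma-voom called both, at -1.29 in WT (adjusted p = 7.63e-03) and 1.275 in KO (adjusted p = 1.80e-05).

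Snai2 encodes Slug, the second Snail repressor, and rested on the fewest counts of the 4 factors. WT libraries held 35.2 and 23.0 normalized counts at day 0, 6.52 and 0 at day 2, and 2.01 and 5.05 at day 4. KO-1 had 45.0 and 45.8, then 25.4 and 31.5, then 15.8 and 8.97. KO-2 had 45.2 and 44.9, then 39.0 and 31.6, then 15.4 and 7.30. KO was above WT in every library at each day, and the WT values of day 2 and day 4 rest on 0 to 8 counts. On the VST scale the differences of KO from WT were 0.11, 0.34 and 0.12, none called. By limma-voom Snai2 was higher in KO at day 2 (3.73, SE 0.78, adjusted p = 6.87e-04) and not called at day 4 (1.58, SE 0.63, adjusted p = 0.0515).

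Cdh2 encodes N-cadherin, which replaces E-cadherin in mesenchymal and neural cells. WT libraries had 99.8 and 87.8 normalized counts at day 0, 280.3 and 301 at day 2, and 6682 and 6233 at day 4. KO-1 had 1174 and 968 at day 0, 1578 and 1616 at day 2, and 3587 and 3131 at day 4. KO-2 had 965 and 966 at day 0, 1839 and 1957 at day 2, and 3732 and 3858 at day 4. Each KO library was above both WT libraries at day 0 and day 2 and below both at day 4. Cdh2 was 10.9-fold higher in KO at day 0 (log2 fold change 1.53, SE 0.08, adjusted p = 2.01e-11), 6.01-fold higher at day 2 (1.53, SE 0.08, adjusted p = 6.66e-12) and 1.81-fold lower at day 4 (-0.76, SE 0.08, adjusted p = 9.80e-08). By limma-voom the log2 fold changes were 3.40, 2.58 and -0.86 at the 3 days in turn. On the VST scale WT rose by 3.12 from day 2 to day 4 (adjusted p = 2.51e-16), or 22.2-fold in normalized counts, and KO by 0.84 (adjusted p = 5.51e-09), or 2.05-fold.

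The ratio of the 2 cadherins was formed per kb of the longest annotated transcript, 4430 bases for Cdh1 and 4843 for Cdh2. Cdh2 per kb came to 1.06% and 0.893% of Cdh1 per kb in WT at day 0, 1.99% and 2.15% at day 2, and 47.9% and 47.2% at day 4. In KO-1 it was 11.5% and 9.84%, then 16.8% and 17.5%, then 36.3% and 31.0%. In KO-2 it was 11.1% and 11.4%, then 24.4% and 26.0%, then 50.3% and 53.2%. The 4 KO libraries were thus above WT at day 0 and day 2, and at day 4 KO-1 lay below and KO-2 above WT. Cdh2 stayed under Cdh1 per kb in all 18 libraries.

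**Figure D3:**
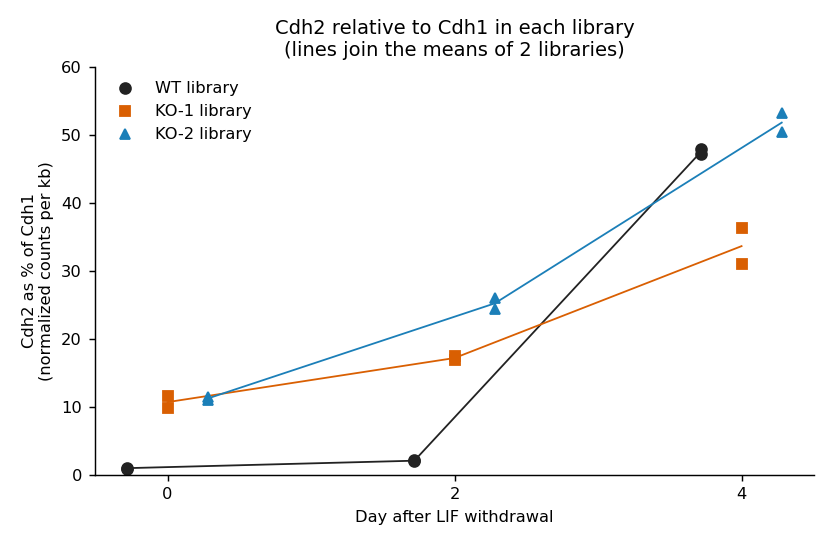
Cdh2 as a percentage of Cdh1 (y axis, both as normalized counts per kb of transcript) by day after LIF withdrawal (x axis); points are libraries, shifted sideways by line, and lines join the means of 2 libraries. WT goes from 2.15% at most at day 2 to 47.2% or more at day 4, and both clones start between 9.84% and 11.5%.

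Vim encodes vimentin, the intermediate filament protein of mesenchymal cells. WT libraries had 6455 and 6491 normalized counts at day 0, 1626 and 1718 at day 2, and 20914 and 19209 at day 4. KO-1 had 8317 and 7789, then 3278 and 3350.3, then 4101 and 3903. KO-2 had 8084 and 8366, then 3768 and 3601, then 5569.7 and 5919. KO was above WT at day 0 and day 2 and below WT at day 4 in every library. Vim was 2.09-fold higher in KO at day 2 (log2 fold change 0.85, SE 0.11, adjusted p = 2.53e-06) and 4.12-fold lower at day 4 (-1.93, SE 0.11, adjusted p = 1.05e-11), and at day 0 the difference was 0.30, not called. It fell from day 0 to day 2 in WT, by 1.64 (adjusted p = 2.64e-09), and in KO, by 1.09 (adjusted p = 6.05e-09). It then rose in WT by 3.18 to day 4 (adjusted p = 4.59e-14), and the change in KO, 0.40, was not called. KO-1 was below KO-2 at day 4 by 0.46 (SE 0.06, adjusted p = 9.72e-05), under the fold threshold.

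Fn1 encodes fibronectin, the matrix protein to which cells that leave the epiblast attach. Its WT libraries held 20063 and 20432 normalized counts at day 0, 3481 and 4195 at day 2, and 54170.4 and 49015 at day 4. In KO-1 it had 30618 and 26966, then 15174 and 17508, then 9136 and 8054. In KO-2 it had 25831 and 26726, then 18019 and 18651, then 7756 and 7707. Every KO library lay above WT at day 0 and day 2 and below WT at day 4. Fn1 was 4.52-fold higher in KO at day 2 (log2 fold change 2.01, SE 0.09, adjusted p = 1.54e-12) and 6.32-fold lower at day 4 (-2.57, SE 0.09, adjusted p = 7.55e-15), and at day 0 the difference, 0.43, was not called. WT fell by 2.23 and then rose by 3.55 (adjusted p = 2.11e-12 and 5.38e-16), while KO fell at both steps, by 0.65 and by 1.03 (adjusted p = 9.04e-07 and 3.38e-09). With KO-2 as the only KO line the first fall was by 0.50 and was not called.

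Whether the KO effect itself differed between days was tested as an interaction. Between day 0 and day 2 it differed in 5 of the 10 genes, beside 3.19% of all genes (2.08% toward KO and 1.11% toward WT): toward KO in Fn1 (1.58), Zeb1 (1.10) and Snai1 (0.63), and toward WT in Cdh1 (-0.65, adjusted p = 8.07e-03) and Epcam (-0.60). Between day 0 and day 4 it differed in 4 of the 10, beside 6.93% (2.81% toward KO and 4.13% toward WT), all toward WT on the VST scale: Fn1 (-3.00, SE 0.13), Cdh2 (-2.28, SE 0.11), Vim (-2.23, SE 0.16) and Snai1 (-1.39, SE 0.08). The count of 5 became 3, with Cdh1 and Epcam no longer called, when any of 5 libraries was left out: replicate 2 of WT at day 0, replicate 2 of KO-1 at day 0, replicate 1 of WT at day 2 and either replicate of KO-2 at day 2. The call for Cdh1 was lost without any 1 of 11 of the 18 libraries and under 6 other settings, and that for Epcam without any of those 5 libraries, with KO-1 as the only KO line (-0.49) and with each library centred on its median (-0.56). By limma-voom the counts were 4 and 5, beside 7.34% and 14.9% of all genes, without Cdh1 between day 0 and day 2, and with Zeb1 toward KO (1.18, adjusted p = 3.95e-03) as the added gene between day 0 and day 4. In that test Cdh2 and Snai1 stood at -4.25 and -2.30 between day 0 and day 4. The comparisons of this study reuse the same WT and KO libraries, so that the values of a gene at 2 days or against 2 references are not independent of each other.

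Within WT, 4 of the 10 genes were called between day 0 and day 2, 1 higher (Esrp1) and 3 lower (Fn1, Vim and Zeb1) at day 2, beside 6.68% of all genes (2.66% higher and 4.02% lower). From day 2 to day 4, 6 were called, with Fn1, Vim, Cdh2, Snai1 and Zeb2 higher and Epcam lower at day 4, beside 8.76% (5.69% higher and 3.07% lower). Over the whole course, 7 were called between day 0 and day 4, 6 higher and Zeb1 lower, beside 13.8% (7.68% higher and 6.16% lower). Within KO, 3 were called from day 0 to day 2 (Esrp1 higher, Vim and Fn1 lower), beside 3.20% of all genes (1.43% higher and 1.77% lower). From day 2 to day 4, 3 were called in KO (Cdh2 and Zeb2 higher, Fn1 lower), beside 1.49% (0.923% higher and 0.565% lower). Between day 0 and day 4, 5 were called in KO (Cdh2, Zeb2 and Esrp1 higher, Vim and Fn1 lower), beside 6.50% (3.44% higher and 3.06% lower). With KO-2 as the only KO line, 2 of these 5 (Cdh2 and Fn1) were called, and Zeb2 (0.55), Esrp1 (0.54) and Vim (-0.47) were under the fold threshold. Esrp1 also fell just under it without replicate 1 of KO-1 at day 4 (0.5796). By limma-voom the counts within WT were 8, 7 and 8, beside 19.5%, 24.1% and 34.7%, with 3 higher and 5 lower, 6 and 1, and 6 and 2. Those within KO were 5, 4 and 7, beside 16.3%, 10.3% and 27.5%, with 3 higher and 2 lower, 2 and 2, and 4 and 3.

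KO and WT libraries did not overlap in 8 of the 10 genes at day 0, in 9 at day 2 and in 10 at day 4. Such separation of 4 from 2 libraries was found in 47.4%, 57.5% and 49.8% of all genes at the 3 days. Between the clones, 0 of the 10 genes were called at any day by limma on VST or by limma-voom, beside 0.0290%, 0.0435% and 0.251% of all genes on the VST scale and 0.159%, 0.232% and 2.23% by limma-voom. At an unadjusted p under 0.05 the clones differed in 2, 5 and 4 of the 10 genes on the VST scale, beside 14.8%, 12.3% and 25.3% of all genes, and in 1, 6 and 4 by limma-voom, beside 12.5%, 13.0% and 27.3%.

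The order of the 10 genes by normalized counts per kb changed with day in WT. At day 0 it ran Fn1, Vim, Cdh1, Epcam, Esrp1, Snai1, Zeb1, Cdh2, Snai2 and Zeb2, where only the neighbours Snai1 and Zeb1 overlapped between libraries. At day 2, Cdh1 and Epcam led and Fn1 had dropped to the fifth place, overlapping Esrp1. At day 4, Vim and Fn1 led, with Cdh2 at the fourth place and Snai1 at the sixth. In KO the order was Fn1, Vim, Cdh1 and Epcam at day 0, Fn1 and Cdh1 overlapped at the top at day 2, and Cdh1 and Vim overlapped at the top at day 4, with Cdh2, Epcam and Esrp1 overlapping in turn. The length used for a gene sets its place in this order: with the median in place of the longest transcript, Zeb1 came to 294 normalized counts per kb in WT at day 0 in place of 68.5 and passed Esrp1, at 189. With that length Epcam passed Cdh1 in WT at day 0 (2991 against 2750.4) and day 2 (4650.0 against 4011), Fn1 was far above Cdh1 in KO at day 2 (6241 against 2405), and in KO at day 4 Vim (3606) and Fn1 (2939) were above Cdh1 (2476). No isoform was measured.

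Across the 18 libraries, which share 3 lines, 3 days and one table, the pairs of the 10 genes with the strongest negative Pearson correlation of VST values were Zeb1 with Epcam (r = -0.897) and Zeb1 with Cdh1 (r = -0.85). The strongest positive ones were Vim with Fn1 (0.849), Snai2 with Zeb1 (0.825) and Cdh1 with Epcam (0.803). Other pairs of a factor with an epithelial gene had either sign. With Snai1, Snai2 and Zeb2 in turn, Cdh1 stood at 0.353, -0.627 and 0.239, and Epcam at 0.0535, -0.547 and -0.123. Esrp1 stood at -0.0497, -0.0957 and 0.236 with these 3, and at 0.318 with Zeb1. The libraries fell into groups by genotype and day, and the WT libraries of day 2 held the lowest Zeb1 and the highest Epcam and Cdh1 values, so that these coefficients describe differences between few groups.

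**Figure D4:**
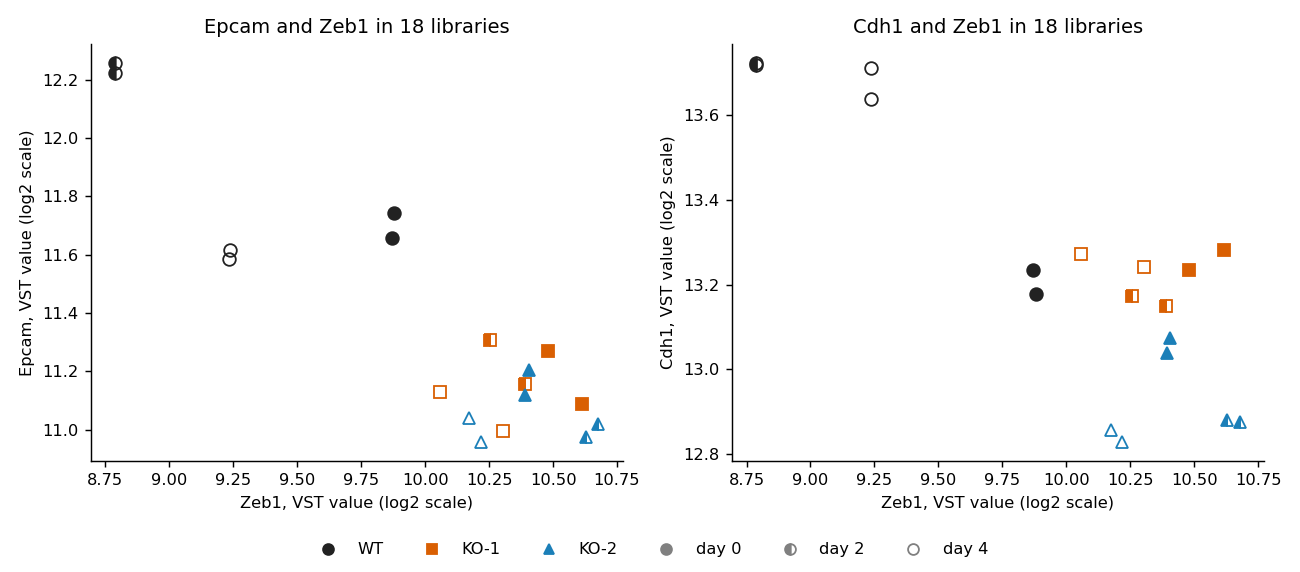
VST values on a log2 scale of Epcam (left, y axis) and Cdh1 (right, y axis) against Zeb1 (x axis) in the 18 libraries, with symbols for the line and filling for the day. The WT libraries of day 2 lie at the upper left of both panels, and all KO libraries lie to the right of all WT libraries. The KO libraries also lie below WT for Epcam, whereas for Cdh1 those of KO-1 at day 0 lie just above WT of that day. The coefficients are r = -0.897 for Epcam and -0.85 for Cdh1.

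Among 10320 other genes with a mean of at least 100 counts, those most like each EMT gene over the 18 libraries were found by the Pearson correlation of VST values. For the epithelial genes they were Ocln (0.936), which encodes the tight junction protein occludin, and Kdf1 (0.924) for Cdh1, Bccip (0.959) and Ppie (0.954) for Epcam, and Cenpc1 (0.979) and Pls3 (0.978) for Esrp1. For the factors they were Alox15 (0.97) and Tmem185a (0.967) for Snai1, Lrig1 (0.981) and Cers6 (0.964) for Zeb1, and Axin2 (0.97), a target of Wnt signalling, and Pde10a (0.967) for Zeb2. For the mesenchymal genes they were Trim67 (0.984) and Bcl2l1 (0.976) for Cdh2, Actn1 (0.974), an actin crosslinker, and Cavin1 (0.972), a caveolar coat protein, for Vim, and Prkaa2 (0.958) and Dennd2c (0.937) for Fn1. Snai2 was too low for this search.

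The genes around these 10 were taken as 9 lists. Their counts of called genes at day 0, 2 and 4 stand beside 2.61%, 6.38% and 7.58% of all genes on the VST scale and 13.3%, 23.9% and 23.9% by limma-voom. At day 4, of 17 tight junction and desmosome genes 10 were called lower in KO, 0 higher and 7 not, with a median log2 fold change of -0.61, and of 14 epithelial polarity and surface genes 9 were called lower, 0 higher and 5 not, with a median of -0.97, where the median of all genes was 0. At that day Dsp, the desmosome plaque protein desmoplakin, had 11029 to 12593 normalized counts in WT and 1226 to 2085 in KO (-2.48, adjusted p = 5.99e-13), and the tight junction claudin Cldn4 had 3551 to 3775 in WT and 695 to 974 in KO (-1.64, adjusted p = 2.84e-12). Also at day 4, the keratin Krt19 had 6967 to 7109 in WT and 70.2 to 97.4 in KO (-3.83, adjusted p = 1.27e-20), and Krt8 had 24930.4 to 26277 in WT and 2964 to 4101 in KO (-2.64, adjusted p = 2.48e-12). At day 2 these 2 lists had 7 genes lower and 0 higher each, among them the claudins Cldn6 (-1.90) and Cldn7 (-1.42). At day 0 they had 1 and 3 lower and 0 higher. By limma-voom the first list had 1 higher and 3 lower at day 0, 0 and 9 at day 2, and 0 and 14 at day 4, and the polarity and surface list had 1 and 5, 0 and 9, and 0 and 12.

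Of 9 partners of cadherins and nectins in adherens junctions, 1 was higher and 1 lower in KO at day 0, 1 and 1 at day 2, and 1 and 4 at day 4. Cdh3, P-cadherin, had 312 to 318 normalized counts in WT at day 4 and 627 to 736 in KO (0.58, adjusted p = 1.59e-07), and at day 0 the difference was 1.21. Jup, plakoglobin, had 4841 to 5108 in WT at day 4 and 2017 to 2499.6 in KO (-0.96, adjusted p = 2.20e-10), and Afdn, afadin, had 7460.1 to 8373 in WT and 3472 to 5046 in KO (-0.84, adjusted p = 6.27e-06). Among 8 epithelial transcription and splicing factors, 1 was higher and 2 were lower at day 0, 0 and 1 at day 2, and 0 and 2 at day 4, the last being Klf5 (-1.25) and Elf3 (-0.67), with a median of -0.04 at day 4. Grhl2, an activator of Cdh1 in epithelia, was lower in KO at day 0 (-0.99, adjusted p = 1.29e-04) and day 2 (-0.91, adjusted p = 1.62e-04). By limma-voom 2 adherens junction partners were higher at each day, and 1, 2 and 5 were lower. Of the epithelial factors, limma-voom called 3, 2 and 2 higher and 2, 3 and 2 lower at the 3 days.

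Of 12 other transcription factors tied to EMT, 0 were called at day 0, where limma-voom called 2 higher and 2 lower, 1 was higher and 1 lower at day 2, and 2 were lower at day 4. Hmga2, an architectural chromatin protein, had 3803 to 3884 normalized counts in WT at day 4 and 159 to 266 in KO (-2.65, adjusted p = 2.32e-16), and Gsc, a homeobox factor of the streak, had 268 to 302 in WT and 8.40 to 15.8 in KO (-1.03, adjusted p = 1.78e-11). Klf8 was the gene higher at day 2 (1.02, adjusted p = 2.52e-08). Of 10 corepressors of Snail and Zeb and regulators of Snail turnover, Ctbp2, a corepressor of Zeb proteins, was higher in KO at day 0 (0.62) and day 4 (0.63), and Fbxl14, a ligase subunit that marks Snail for breakdown, was lower at day 4 (-1.20, adjusted p = 5.05e-13), with 3804 to 4147 normalized counts in WT and 1325 to 1551 in KO. By limma-voom the EMT factors had 2 higher and 3 lower at day 2 and 1 and 6 at day 4. The corepressor and turnover genes had 1 and 0, 0 and 1, and 1 and 2 at the 3 days. That is 10%, 10% and 30% of the latter list, under or near the 13.3%, 23.9% and 23.9% of all genes. On the VST scale it was 10%, 0% and 20%, beside 2.61%, 6.38% and 7.58%.

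Mesenchymal genes moved both ways. Of 24 measured genes of this list (S100a4 was not in the table), 7 were higher and 2 lower in KO at day 0, 3 and 1 at day 2, and 4 and 8 at day 4, with medians of 0.40, 0.06 and -0.15 in that order. The list shares 6 genes with the markers of feeder fibroblasts, and of its calls at day 0, Col1a1, Col3a1 and Col1a2 (higher) and Pdgfrb (lower) are among the 6. The feeder marker sum at that day was 3847 and 4057 in WT and 6397 to 7341 in KO, and its part in these calls was not tested. By limma-voom these were 14 and 2, 4 and 2, and 7 and 12, with medians of 0.94, 0.19 and -0.45, and the 25% called at day 2 is near the 23.9% of all genes. At day 4 the collagen gene Col5a2 had 66.9 to 90.6 normalized counts in WT and 688 to 937 in KO (1.39, adjusted p = 3.45e-12), whereas Col5a1, which encodes another chain of the same collagen, had 8556 to 8992 in WT and 999 to 1188 in KO (-2.48, adjusted p = 1.15e-17). The matrix proteoglycan Vcan was higher in KO at day 4 (1.32, adjusted p = 1.05e-08), and the cadherin Cdh11 was lower (-1.68, adjusted p = 9.99e-16), with 1018 to 1079.8 in WT and 52.6 to 78.4 in KO.

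Of 9 measured fibronectin receptors (Itgb6 was not in the table), 1 was higher and 1 lower at day 0, 3 and 0 at day 2, and 1 and 2 at day 4. The proteoglycan receptor Sdc4 had 672 to 771 normalized counts in WT at day 4 and 2716 to 3275 in KO (1.50, adjusted p = 2.02e-11). Itga5, whose product pairs with that of Itgb1 as the main fibronectin receptor, was higher in KO at day 2 (0.74, adjusted p = 2.49e-06). Itga8 and Itgb8 were lower in KO at day 4 (-1.03 and -1.11). Of 11 TGF-beta signalling genes, 0 were called at day 0, where limma-voom called 2 higher, 1 was higher at day 2, and 3 were higher and 3 lower at day 4. The ligand genes Tgfb1 and Tgfb2 had 1851 to 1899.9 and 1007 to 1082 normalized counts in WT at day 4 and 184 to 226 and 105 to 146 in KO (-1.81 and -1.47). The coreceptor gene Eng and the inhibitor gene Smad7 were higher in KO (1.18 and 1.07). By limma-voom the receptors had 3 higher and 1 lower at day 0, 3 and 1 at day 2, and 1 and 2 at day 4, and the TGF-beta genes had 3 and 1 at day 2 and 3 and 3 at day 4.

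**Figure D5:**
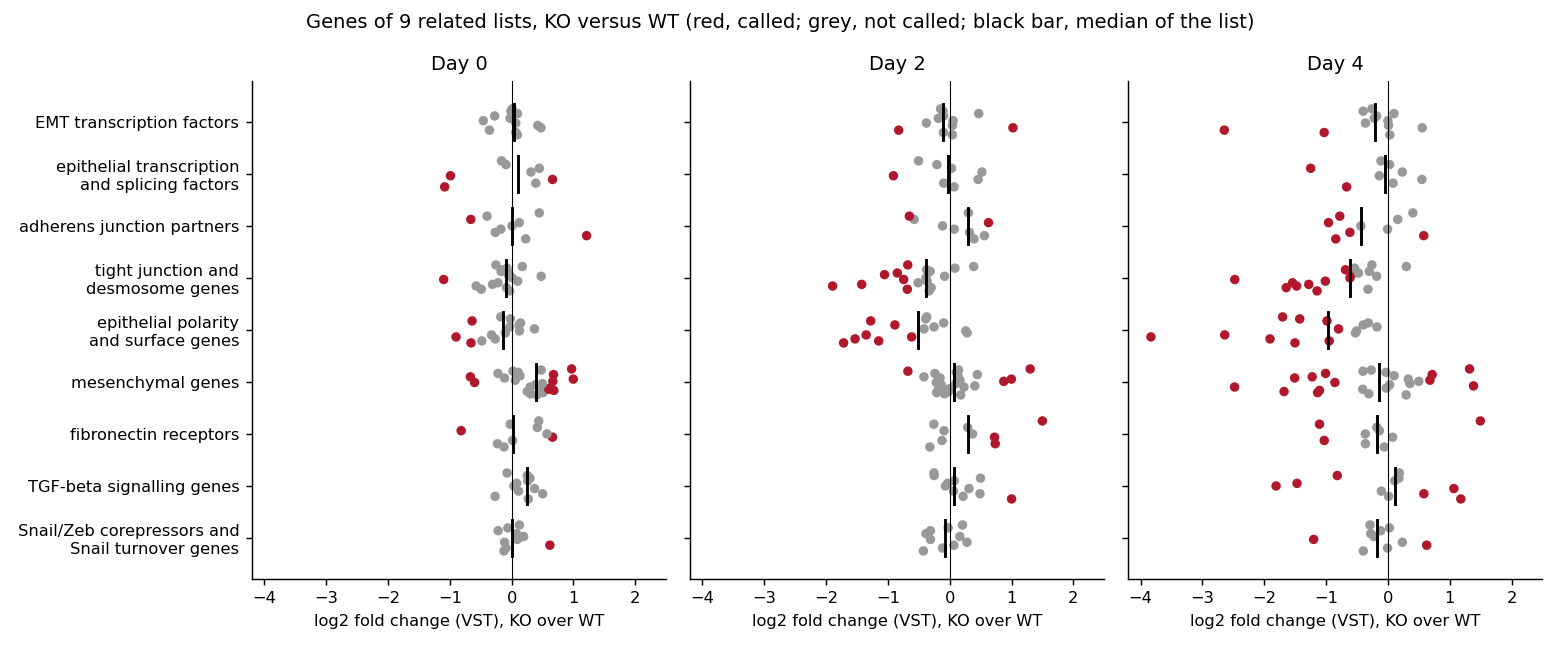
Log2 fold change of KO over WT on the VST scale (x axis) for each gene of the 9 lists (y axis) at day 0, 2 and 4; red points were called, grey points were not, and black bars are the medians of the lists. At day 4 the tight junction and desmosome list and the polarity and surface list have medians of -0.61 and -0.97 with no gene called higher, and the mesenchymal list has called genes on both sides of 0.

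Markers of other cell types moved with some of these results. On the VST scale, calls among these markers stand beside 2.61%, 6.38% and 7.58% of all genes at day 0, 2 and 4. By limma-voom these shares were 13.3%, 23.9% and 23.9%. Feeder fibroblasts express Vim, Fn1 and Cdh2, and at day 0 the 12 measured markers of feeder fibroblasts summed to 3847 and 4057 normalized counts in WT and to 6397 to 7341 in KO, with Col1a1 the most abundant in every library. Of the 12, Fbln2, Col1a1, Col3a1 and Col1a2 were called higher and Pdgfrb was called lower in KO at that day, beside 1.73% and 0.879% of all genes. Limma-voom called 6 higher and 1 lower there, beside 13.3% of all genes called either way. Lum was at 0 counts in all 6 libraries of day 0, Dcn had 12 counts or fewer and Twist2 had 7 or fewer. At day 2 the sum was 1199 and 1366 in WT and 783 to 968 in KO, where 0 of the 12 were called higher and 1 (Thy1) lower. Limma-voom called 0 higher and 2 lower there. At day 4 it was 2771 and 2938 in WT and 794 to 1473 in KO. At that day 0 of the 12 were called higher and 2 (Pdgfrb and Col1a1) lower, beside 3.67% and 3.91% of all genes. Limma-voom called 1 higher and 6 lower, beside 23.9% of all genes called either way. The part of these cells in the results was not tested.

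Neural cells express Cdh2, and 7 measured neural markers summed to 1847 and 1891 normalized counts in the WT libraries of day 0 and to 4597 to 5684 in KO, where Tubb3 (1.08), Ncam1 (1.00) and Nes (0.68) were called higher. At day 2 the sums were 3186 and 3193 in WT and 3425 to 3564 in KO, and Ncam1 (1.00), Tubb3 (0.94) and Sox1 (0.68) were called higher in KO and Nes (-1.09) lower, with a median of -0.11 over the 7. At day 4 the sums were 6078 and 6436 in WT and 4413 to 4941 in KO, and Sox1 (1.72) and Tubb3 (1.14) were called higher and Nes (-1.39) lower, with a median of 0.33. Nes, the most abundant of them in WT at day 4, had 5247 to 5624 normalized counts there and 1252 to 2309 in KO, and Sox1 had 6.04 normalized counts or fewer in WT and 505 to 705 in KO. The 8 markers of the primitive streak and nascent mesoderm summed to 32808 and 33282 in WT at day 4 and to 1009 to 1552 in KO, against 369.5 or fewer in all libraries of day 2. Of these 8, 7 were called lower in KO at day 4, beside 3.91% of all genes. Limma-voom called all 8 lower there, beside 23.9% of all genes called either way. T, the streak factor Brachyury, was the most abundant in WT at day 4, and Msgn1 was at 0 counts in all 4 KO libraries. Primitive and parietal endoderm markers, which come from cells rich in Fn1, summed to 2087 and 2146 in WT and 773 to 925 in KO at day 2, and to 5504 and 5627 in WT and 1226 to 1488 in KO at day 4. Of these 10 markers, 0, 2 and 3 were called lower in KO at day 0, 2 and 4, beside 0.879%, 2.37% and 3.91% of all genes. By limma-voom 4, 5 and 7 were called lower, beside 13.3%, 23.9% and 23.9% of all genes called either way. In both tests 0 were called higher. Trophoblast markers summed to 1783 and 1816 in WT and 2272 to 2839 in KO at day 0. At day 2 they summed to 352 and 360.1 in WT and 862 to 959.6 in KO, where Tfap2c was called higher and Krt7 lower. At day 4 the sums were 1913 and 1989 in WT and 1011 to 1218 in KO. Tfap2c was called higher there and Cdx2, Krt7 and Hand1 lower. The most abundant of these markers was Tfap2c at day 0 and in all KO libraries. In WT it was Krt7 at day 2 and Cdx2 at day 4. The paper names Hand1 among factors of the skeletal system, so these sums alone do not show trophoblast cells. Pluripotent markers, among which Cdh1 and Epcam are not counted, summed to 24095 and 27245 in WT and 28936 to 37064 in KO at day 2, and to 17726 and 18344 in WT and 22926 to 24273 in KO at day 4. Of the 8, 5 were called higher and 1 (Pou5f1) lower in KO at day 2, beside 4.01% and 2.37% of all genes. Their median was 1.03, where that of all genes was -0.0159. At day 4 the calls were 6 higher and 1 (Tdgf1) lower, beside 3.67% and 3.91%, with a median of 1.07 against 0. By limma-voom these counts were 5 and 1 at day 2 and 6 and 2 at day 4, beside 23.9% of all genes at each. Sox2 had 217 to 253 normalized counts in WT at day 4 and 4083 to 4546 in KO. The part of cell composition in the levels of the 10 genes was not tested.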

How the data were processed

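Poly-A RNA of WT, KO-1 and KO-2 cells was sequenced in paired reads of 18 libraries. The authors trimmed the reads with Trim Galore 0.6.7, aligned them to mm39 with STAR 2.7.11a, counted primary nonduplicated fragments on exons with featureCounts 2.0.6, left out genes with few counts on average, and deposited the values of 20703 genes after the variance stabilizing transformation of DESeq2 1.42.0, on a log2 scale. Differences are compressed near the lowest value, 8.36, which stands for 0 counts. The transformation was inverted from that value alone; 100% of the values came out whole within 0.01, and the size factors of the inverted counts equalled those behind the deposited values. Low counts (1 to 20) were even in 72.5% to 77.5% of cases per library, for a reason that was not found. It is therefore not known whether 1 count stands for 1 independent fragment. The precision of limma-voom at low counts may be affected.

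Groups followed the labels. The main test was limma 3.58.1 in R 4.3.3 on the VST values, with a mean-variance trend in the prior, in 1 fit of 6 groups of genotype and day with Benjamini-Hochberg adjustment over all 20703 genes. In that fit the libraries of both clones counted as replicates of KO, and those of 1 line as replicates of WT. Its p-values therefore measure spread between libraries and not between independent lines. Clones were compared in a fit of 9 groups. The study set the thresholds on fold changes of its count model. On the VST scale the same fold threshold is stricter. The inverted counts were tested by limma-voom, scaled by the authors' own size factors. The replicates are labelled as biological, and with 2 WT and 4 KO libraries an exact permutation test of 1 gene could not go below p = 0.0667. Simulated data for KO versus WT at day 4 held 20703 genes, of which 200 were changed 4-fold. Limma on VST recovered 85.5% of these and limma-voom 100%, with 0 unchanged genes called. The simulation gave all genes the same spread beyond that of counting, held no difference between clones, and changed no gene with few counts. These rates are therefore not error rates for the real data.

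The 10 genes and the lists were chosen with earlier results of these data known. The rule for named genes took the 10, Nsd1, up to 2 rises and 2 falls per list at day 4 with all KO libraries on the same side of WT, the 2 nearest patterns per gene, and markers that were most abundant or at 0; other genes named from the lists were picked after their values were seen. Lengths came from an annotation on GRCm38 (99.5% of genes matched) and promoter windows from RefSeq.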

Additional observations from a re-analysis of the deposited data

Results flagged for a closer look

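Cdh2 in replicate 1 of KO-1 at day 0 stood apart from the other KO libraries of that day, at 1174 normalized counts against 965, 966 and 968. Of 30 groups of 4 libraries examined in this way, chance would set apart about 1 in 20, and this was the only one. The Cdh2 difference at day 0 is larger than this gap by far, since both WT libraries were under 100.

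For 7 genes the KO effect differed between days by the interaction test in limma on VST. Between day 0 and day 2 the effect moved by 1.58 in Fn1, 1.10 in Zeb1, 0.63 in Snai1, -0.65 in Cdh1 and -0.60 in Epcam. Between day 0 and day 4 it moved by -3.00 in Fn1, -2.28 in Cdh2, -2.23 in Vim and -1.39 in Snai1. Fn1 and Snai1 were set apart in both comparisons, with opposite signs.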

How the results depend on the processing

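Besides leaving out each of the 18 libraries in turn, 12 other settings were tried on the counts of EMT genes called. By limma-voom the count at day 0 between KO and WT was 5 in place of 3, that of WT from day 0 to day 2 was 8 in place of 4, and that of KO over the same step was 5 in place of 3. With no threshold on the fold change, the count was 6 for KO versus WT at day 0, 9 for WT from day 0 to day 2, 5, 6 and 8 for KO from day 0 to day 2, day 2 to day 4 and day 0 to day 4, and 2 between the clones at day 4, where 19.6%, 28.6%, 25.5%, 16.1%, 37.9% and 5.16% of all genes, in that order, passed the same rule. With KO-2 as the only KO line, 2 genes were called from day 0 to day 4 in KO in place of 5. All other counts of EMT genes under these settings kept within 1.5 times of those reported. The median of all genes was -0.142 by limma-voom and -0.0159 on the VST scale for KO versus WT at day 2, a shift of -0.126, and -0.17 and -0.0197 for WT from day 2 to day 4, a shift of -0.15. The larger counts without a fold threshold follow from the looser rule, and for the other settings the cause was not tested.

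Without 1 library at a time, the count for the KO effect at day 2 against day 0 ran from 3 (without any of the 5 libraries named in the report) to 5, and all other counts kept within 1.5 times of those reported. Leaving out a WT library leaves 1 WT library at that day, which is then taken to vary like the other groups. Over all comparisons of the 10 genes, 65 values changed sign under some setting, none of them called before or after, and all were 0.0842 or less in size in the reported fit. For KO versus WT, Cdh1 at day 0 was 0.052 with KO-1 as the only KO line and 0.0095 after quantile normalization, Zeb2 at day 2 was 0.013 after quantile normalization, and without 1 library Zeb2 ran from -0.0018 to 0.068 at day 0 and from -0.14 to 0.029 at day 2. The KO effect for Cdh2 at day 2 against day 0 was 0.0016, and -0.82 by limma-voom (adjusted p = 0.0514), not called. Calls lost under a setting stand beside their values in the report.

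Neither labels nor methods say that replicates of the same number belong together. Over 11599 genes, same-numbered replicates of 36 pairs of groups deviated with a mean correlation of -0.0448 (-0.581 to 0.612), so the numbers were not taken as a pairing. With the replicate block on the VST values the counts were 3, 6 and 7 for KO versus WT at day 0, 2 and 4, as without it, and 4 in place of 5 for the KO effect at day 2 against day 0. Chosen after seeing the data, limma-voom with the block gave 5, 7 and 5, and limma-voom on counts thinned to the smallest library gave 5, 8 and 5, for KO versus WT at day 0 and for WT and KO from day 0 to day 2. Depth limits Snai2 and, in WT at day 2, Zeb1, whose values there rest on 0 to 4 and on 18 counts.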
